A study of Astyanax mexicanus with 18 samples.

Results

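Livers of refed Pachón cavefish were compared with livers of refed surface fish, with 3 libraries in each group. Levels were given as TPM (the share of a library's transcripts that a gene holds, corrected for transcript length), and the comparison covers genes with at least 1 TPM in 3 or more of these 6 libraries, which were 11819 of 27420 listed genes. Astyanax mexicanus is a Mexican tetra with an eyed river form, the surface fish, and several blind cave populations, of which Pachón is one. All fish were 4 months old and were fasted for 4 days after a last meal of 10 mg of feed. Those of the refed groups, 3 Pachón cavefish and 3 surface fish per the labels, then received another 10 mg and were dissected 3 hours later. Livers of both populations taken at the end of the fast, called starved here, were measured in 3 libraries each and serve as a second comparison. Its fold changes rest on libraries that the refed fold changes do not use. The standard errors and p-values of both comparisons rest on the spread pooled over all 12 libraries. The labels name no genetic change, no drug and no pooling of livers for these libraries, and the populations themselves are the contrast. The title of the series puts the question in terms of lipogenesis through Ppar gamma. Another 6 libraries, ChIP-seq and its inputs, were not analysed here.

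After a meal the liver takes up sugar and amino acids and turns part of the carbon into fat. In this pathway, de novo lipogenesis, ATP citrate lyase makes acetyl-CoA from citrate, fatty acid synthase joins such units into palmitate, a desaturase makes monounsaturated fatty acids, and acyltransferases build triglyceride, which is kept in lipid droplets. PPARG is a nuclear receptor known in mammals as the main regulator of fat cell formation and of fat storage genes, and the related PPARA acts on fatty acid oxidation. Amino acids that are not used for protein are broken down in the liver, which is the main site of methionine, tyrosine and proline breakdown.

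Of the 11819 tested genes, 1269 (10.7%) were higher and 454 (3.84%) lower in refed Pachón livers than in refed surface livers, 1723 (14.6%) together, at a limma adjusted p under 0.05. At least a 2-fold change on the log2(TPM + 1) scale was found for 820 of the higher and 326 of the lower genes, and at least a 4-fold change for 242 and 109. The excess of higher genes depended on the scaling of the libraries: all tested genes had a median log2 fold change of 0.20, and 73.7% of the calls were higher. Median-of-ratios scaling brought that median to 0.03 and gave 878 higher and 717 lower genes, quantile normalization gave 816 and 818, and TPM rescaled without the 20 most abundant genes gave 1191 and 551. Leaving out Pachon_refed replicate 2 reduced the calls to 1070, leaving out Surface_refed replicate 2 reduced them to 1132, and without each other refed library there were between 1230 and 1651. A minimum of 5 TPM left 866 calls among 6725 tested genes. With only the 6 refed libraries fitted 1470 genes were called, of which 1287 were among the 1723. Libraries of the refed groups did not overlap for 1707 of the 1723 called genes, and they did not overlap for 36.2% of all tested genes. For each called gene named below the libraries of the groups did not overlap. The filter admitted 423 genes through the Pachón libraries alone and 178 through the surface libraries alone, and 341 and 129 of these were called, as such genes had to differ. The called genes given below with their values include 22 of this kind, which are named as such. Calls were recomputed under 18 alternatives, or under 17 for genes that a minimum of 5 TPM leaves out. Of the 1723 called genes 739 (42.9%) kept their call wherever they were tested. Without each refed library in turn 873 kept it.

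The 6 libraries separated by population. The first principal component of log2(TPM + 1) held 55.9% of the variance and put all Pachón libraries on one side and all surface libraries on the other, and the second, with 17.6%, set Surface_refed replicate 1 against Surface_refed replicate 3. Across genes, which share each library and are no replicates, Pearson r was 0.956 to 0.974 among refed Pachón libraries and 0.926 to 0.955 among refed surface libraries, against 0.876 to 0.896 between the groups. The most abundant gene in each of the 6 was fabp10a, the fatty acid binding protein of fish liver. Hepatocyte markers summed to 203570 to 242410 TPM in Pachón and 239250 to 291180 TPM in surface livers, with overlap. Cholangiocyte (bile duct) markers summed to 589.8 to 933 TPM in Pachón and 1186 to 1478 TPM in surface livers, mainly from krt8 and krt18, neither of which was called. Of 14 such markers 7 were tested, and the 1 called was higher in Pachón livers, opposite to the sum. Of 30 skeletal muscle markers, 7 were at 0 in all 6 libraries and 2 were tested, mb and pvalb9. Both passed the filter through the Pachón libraries alone and so had to be higher. The list summed to 17.2 to 24.4 TPM in Pachón and 1.86 to 3.78 TPM in surface livers. Without mb it summed to 7.26 to 10.6 TPM in Pachón and 1.51 to 3.41 TPM in surface livers. Most of the Pachón sum came from mb and pvalb9, so it adds no support beyond these 2 genes. T and NK cell markers summed to 9.34 to 12.5 TPM in Pachón and 4.48 to 6.84 TPM in surface livers, and endocrine pancreas markers to 4.84 to 7.44 and 2.38 to 4.35 TPM. Of 18 T and NK cell markers 3 were tested, 1 of which passed the filter through 1 group alone, and 1 was called higher. Of 21 endocrine pancreas markers 7 were at 0 in all 6 libraries, and the 1 tested was not called (log2 fold change -0.07). Neutrophil markers summed to 75.5 to 97.9 TPM in Pachón and 132 to 164 TPM in surface livers, mostly from il6r, without which they were 18.2 to 25.9 TPM in Pachón and 8.32 to 18.6 TPM in surface livers, with overlap. The sums of the remaining 9 lists overlapped between groups, and macrophage markers were highest in Surface_refed replicate 3 (633 TPM, against 51.8 in the lowest surface library and 99.3 to 209 in Pachón livers). Bulk libraries cannot tell fewer cells of a type from less RNA per cell, and the part of these marker differences in the results below was not tested.

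PPARG itself was higher in Pachón livers. PPARG (ENSAMXG00000043041) had 52.2, 67.6 and 73.7 TPM in refed Pachón livers, against 15.1, 22.4 and 15.4 TPM in refed surface livers, which differed by 1.82 ± 0.35 on the log2(TPM + 1) scale (log2 fold change with the standard error of the fit, limma adjusted p = 0.00497). Each Pachón library lay above each surface library, and the call stood under all 18 alternatives. Of 29 genes on a list of PPARG and its fat cell targets, 20 were tested, and 5 (25%) were higher, 2 (10%) lower and 13 not called. Of all tested genes 10.7% were higher and 3.84% lower. The list had a median of 1.03 beside 0.20 over all tested genes. In 13 other fits 4 to 7 members were higher and 1 to 2 lower. The higher members were PPARG, fasn, dgat2, acsl1a and aqp7. The lists of fat synthesis below count fasn and dgat2 again, as they do the lower member cidec. The call of aqp7 ended with only the 6 refed libraries fitted and under quantile normalization (limma adjusted p = 0.0576 and 0.0563). Among the tested members aqp7 passed the filter through the Pachón libraries alone and mgll through the surface libraries alone. The higher member acsl1a (ENSAMXG00000039962), which activates long-chain fatty acids, had 1.67, 4.29 and 3.69 TPM in refed Pachón livers, against 0.45, 0.24 and 1.18 TPM in refed surface livers (1.36 ± 0.27, limma adjusted p = 0.00625). The lower members were cidec, a lipid droplet gene, and mgll, a lipase gene, both described below. Adipocyte markers, which share genes with this list, summed to 387.5 to 855.5 TPM in Pachón and 274.4 to 450.9 TPM in surface livers, so that the groups overlapped. Without their most abundant gene, fabp11a, they summed to 801, 299 and 300.3 TPM in the Pachón libraries and 142, 139 and 139.5 TPM in the surface libraries. These sums did not overlap, and their part in the values of this list was not tested.

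Fatty acid synthesis genes were called higher at a share above that of all tested genes. Of 40 listed genes 30 were tested, of which 9 were higher, 0 lower and 21 not called, with a median log2 fold change of 0.92; 1 of the tested genes passed the filter through 1 group alone. In 13 other fits 7 to 9 were higher and none was lower. Fatty acid synthase, fasn (ENSAMXG00000012577), had 2516, 472 and 812 TPM in refed Pachón livers, against 91.5, 14.4 and 10.1 TPM in refed surface livers (5.30 ± 0.79, limma adjusted p = 0.00116). The lowest Pachón library was above the highest surface library by several-fold, and replicate 1 was the highest library of each group. ATP citrate lyase, aclya (ENSAMXG00000000394), had 498, 194 and 242 TPM in refed Pachón livers, against 31.7, 13.9 and 19.2 TPM in refed surface livers (3.74 ± 0.53, limma adjusted p = 0.000816). Again replicate 1 was the highest in both groups. Levels were closer together among replicates for acss2 (ENSAMXG00000040918), which makes acetyl-CoA from acetate, with 17.2, 20.4 and 21.5 TPM in refed Pachón livers, against 6.21, 7.64 and 8.56 TPM in refed surface livers (1.29 ± 0.21, limma adjusted p = 0.00207). The thioesterase gene olah (ENSAMXG00000033072), whose product releases fatty acids from the synthase, had 9.49, 8.88 and 8.6 TPM in refed Pachón livers, against 3.38, 2.83 and 3.04 TPM in refed surface livers (1.29 ± 0.17, limma adjusted p = 0.000513). me2 (ENSAMXG00000041378), a mitochondrial malic enzyme gene, had 25.7, 25.4 and 24.4 TPM in refed Pachón livers, against 15.1, 2.89 and 4.79 TPM in refed surface livers (1.88 ± 0.41, limma adjusted p = 0.0103). Its 3 Pachón values were nearly equal, while Surface_refed replicate 1 was well above the other surface libraries. These 5 calls stood under all 18 alternatives.

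The most abundant lipogenic transcripts described here varied more than this. thrsp (ENSAMXG00000025561), a regulator of lipogenesis, had 25429, 4553 and 6172 TPM in refed Pachón livers, against 3033, 260.3 and 51.3 TPM in refed surface livers (4.69 ± 1.33, limma adjusted p = 0.0356). Its surface libraries spanned a range wider than the gap between the groups, and the call ended without Pachon_refed replicate 1, Pachon_refed replicate 2, Pachon_refed replicate 3, Surface_refed replicate 2 or Surface_refed replicate 3 (adjusted p from 0.0613 to 0.123) and under 4 other alternatives (adjusted p from 0.0541 to 0.0726). The desaturase gene scd (ENSAMXG00000004360) had 7584, 1554 and 1097 TPM in refed Pachón livers, against 856, 548 and 254 TPM in refed surface livers, with no overlap but no call (2.25 ± 1.05, limma adjusted p = 0.177). For scd too, replicate 1 was the highest library in each group. The transcription factor gene mlxipl, which responds to sugar, was not called either, with 5.55, 13 and 10 TPM in refed Pachón livers, against 1.16, 9.52 and 3.79 TPM in refed surface livers and overlapping groups (1.07 ± 0.48, limma adjusted p = 0.158). No row carries the symbol acaca or srebf1, so these genes are not described.

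A few genes of triglyceride synthesis were higher, among them genes of the first and of the last step. gpam (ENSAMXG00000013752), which adds the first fatty acid to glycerol phosphate, had 22.6, 23.2 and 23.6 TPM in refed Pachón livers, against 8.71, 3.69 and 5.29 TPM in refed surface livers (1.87 ± 0.26, limma adjusted p = 0.000725). The Pachón values were almost the same in 3 libraries, and the surface values were all below them. For dgat1b (ENSAMXG00000037012), one of the enzymes of the last step, the levels were 21.6, 19.1 and 21.7 TPM in refed Pachón livers, against 2.26, 1.69 and 2.67 TPM in refed surface livers (2.78 ± 0.19, limma adjusted p = 3.67e-06). The other last-step gene dgat2 (ENSAMXG00000043250) was far more abundant, with 774, 276 and 282 TPM in refed Pachón livers, against 119.8, 107 and 97.4 TPM in refed surface livers (1.86 ± 0.39, limma adjusted p = 0.0089). Pachon_refed replicate 1 was the highest dgat2 library and the remaining Pachón libraries were still above all surface libraries. In contrast, cidec (ENSAMXG00000033496), which enlarges lipid droplets, was lower, with 8.51, 9.93 and 9.01 TPM in refed Pachón livers, against 17.5, 24.5 and 28.7 TPM in refed surface livers (-1.25 ± 0.25, limma adjusted p = 0.00581). The droplet coat gene PLIN2 (ENSAMXG00000002544), chosen after its values were seen, was not called (2.03 ± 0.73, limma adjusted p = 0.0864), with 166, 26 and 64.2 TPM in refed Pachón livers, against 29.5, 6.87 and 17 TPM in refed surface livers and overlapping groups. In all, 24 of 31 listed genes of triglyceride synthesis and lipid droplets were tested, with a median of 0.49. Beside 10.7% and 3.84% of all tested genes, 4 (16.7%) were higher and 1 (4.17%) lower, and 19 were not called. Most genes of the list were thus not called. The fourth higher gene was lpin1 (1.68 ± 0.46, limma adjusted p = 0.0306), a phosphatidate phosphatase gene whose call ended without Pachon_refed replicate 2, Pachon_refed replicate 3, Surface_refed replicate 2 or Surface_refed replicate 3 (adjusted p from 0.0576 to 0.119) and under 5 other alternatives (adjusted p from 0.0545 to 0.091).

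**Figure D1:**
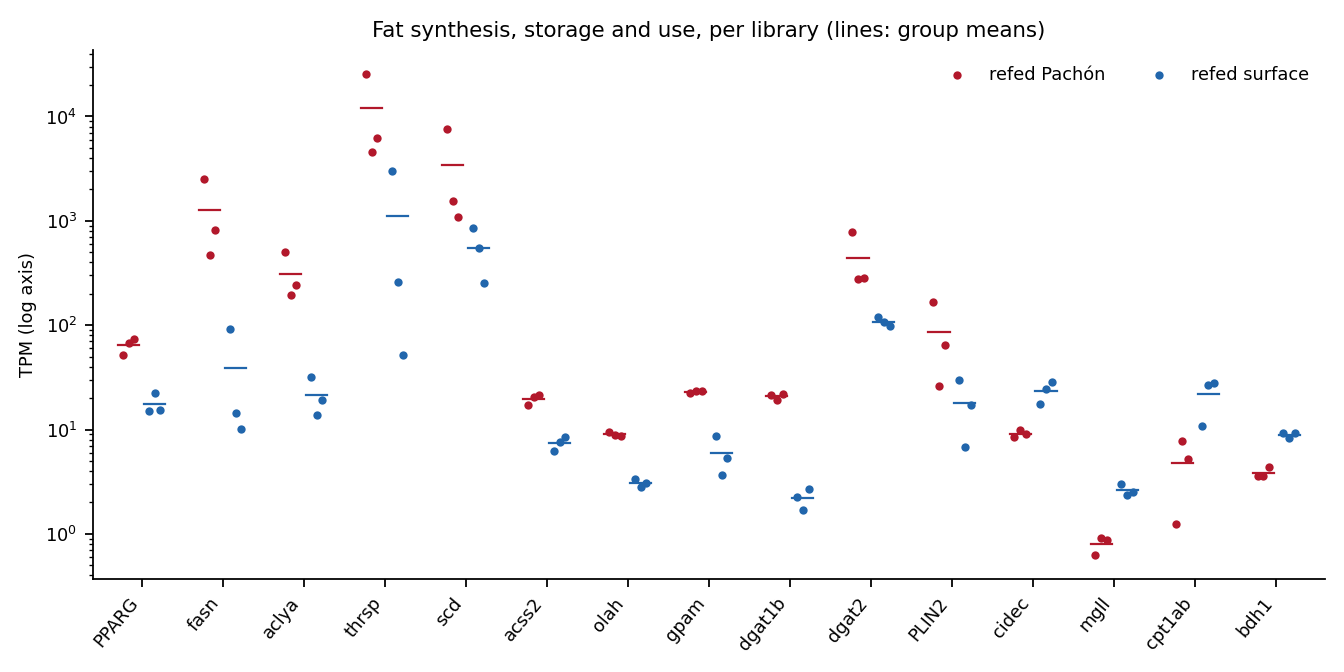
TPM on a log axis of 15 genes of fat synthesis, storage and use in each refed library, with the 3 Pachón libraries left of the 3 surface libraries for each gene, in the order of replicates 1 to 3, and the group mean as a line. The synthesis genes fasn, aclya and dgat1b lie higher in all Pachón libraries, and cidec, mgll, cpt1ab and bdh1 lie lower in all of them.

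Genes of fatty acid oxidation did not share that direction. Of 48 tested genes of 52 listed, 3 were higher, 4 lower and 41 not called, a share of higher genes below that of all genes and a share of lower genes above it, and the median was -0.06. The number higher was 1 without Pachon_refed replicate 3 or Surface_refed replicate 2, the number lower was 2 without Pachon_refed replicate 3 and 7 under quantile normalization and with library weights. Carnitine palmitoyltransferase gene cpt1ab (ENSAMXG00000016822), the entry step of long-chain fatty acids into mitochondria, had 1.24, 7.79 and 5.18 TPM in refed Pachón livers, against 10.9, 26.4 and 28 TPM in refed surface livers (-2.09 ± 0.57, limma adjusted p = 0.0292). That call ended without Pachon_refed replicate 1, Pachon_refed replicate 3, Surface_refed replicate 2 or Surface_refed replicate 3 (adjusted p from 0.054 to 0.101) and with no filter, with only the 6 refed libraries fitted and with the replicate block (adjusted p from 0.0547 to 0.0578). Its paralog cpt1aa was not called, with 7.35, 5.12 and 9.07 TPM in refed Pachón livers, against 4.65, 9.29 and 9.14 TPM in refed surface livers (-0.07 ± 0.52, limma adjusted p = 0.948). The ketone body gene bdh1 (ENSAMXG00000033523) was lower, with 3.56, 3.6 and 4.39 TPM in refed Pachón livers, against 9.21, 8.25 and 9.35 TPM in refed surface livers (-1.04 ± 0.20, limma adjusted p = 0.00514). So was the monoglyceride lipase gene mgll (ENSAMXG00000039283), with 0.63, 0.91 and 0.88 TPM in refed Pachón livers, against 2.99, 2.34 and 2.5 TPM in refed surface livers (-0.998 ± 0.19, limma adjusted p = 0.00545), a call that ended with both refed libraries numbered 1 left out (adjusted p = 0.0576). Among the tested members 2 passed the filter through 1 group alone. Of the receptors of this pathway, pparab had 38.3, 11.9 and 24.3 TPM in refed Pachón livers, against 10.7, 5.26 and 3.96 TPM in refed surface livers (1.71 ± 0.46, limma adjusted p = 0.0285), a call that ended without Pachon_refed replicate 1, Pachon_refed replicate 3, Surface_refed replicate 2 or Surface_refed replicate 3 (adjusted p from 0.0795 to 0.103) and under 5 other alternatives (adjusted p from 0.0527 to 0.0595). pparaa was not called, with 1.76, 7.76 and 3.86 TPM in refed Pachón livers, against 1.97, 17.7 and 11 TPM in refed surface livers (-0.84 ± 0.62, limma adjusted p = 0.398).

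Few genes of cholesterol, bile acids and lipoproteins were called higher. In cholesterol synthesis and uptake 1 of 32 tested genes (3.1%) was higher and 1 (3.1%) lower (median -0.15). The median was -0.88 without Surface_refed replicate 3 and 0.62 without Surface_refed replicate 1, and the number higher was 0 without Pachon_refed replicate 1 or 2 and 5 without Surface_refed replicate 1. In bile acid synthesis and export 1 of 19 (5.26%) was higher and 2 (10.5%) lower. Among apolipoproteins and lipid transport genes 1 of 29 (3.45%) was higher and 2 (6.90%) lower. Of all tested genes 10.7% were higher and 3.84% lower, so the shares of lower genes in these 2 lists were above the background. The bile acid counts were 0 higher and 3 lower under median-of-ratios scaling and 0 higher and 4 lower under quantile normalization. Both lists lost their higher gene without Pachon_refed replicate 2, and the bile acid list also without Pachon_refed replicate 1 or 3 or Surface_refed replicate 1 or 2. The bile acid gene with the smallest p was hsd3b7 (ENSAMXG00000041460), with 2.34, 4.63 and 3.08 TPM in refed Pachón livers, against 13.1, 10.5 and 8.52 TPM in refed surface livers (-1.44 ± 0.25, limma adjusted p = 0.0025). An apolipoprotein A-IV row, apoa4a (1 of many) (ENSAMXG00000039639), had 1.48, 0.68 and 1.02 TPM in refed Pachón livers, against 21.8, 50.1 and 118 TPM in refed surface livers (-4.67 ± 0.96, limma adjusted p = 0.0075). The files mark that symbol as one of many copies, so reads of near-identical copies may have been split among rows. Cyp7a1, the rate-limiting enzyme of bile acid synthesis, was not called, and Surface_refed replicate 3 lay among the Pachón libraries: cyp7a1 (ENSAMXG00000006152) had 20.9, 39 and 19.4 TPM in refed Pachón livers, against 1.6, 2.42 and 21.8 TPM in refed surface livers (2.15 ± 1.15, limma adjusted p = 0.237). The HMG-CoA reductase gene hmgcra varied more within each group than between them, with 62, 1.68 and 5.07 TPM in refed Pachón livers, against 119, 4.15 and 0.43 TPM in refed surface livers (0.07 ± 1.57, limma adjusted p = 0.981). Replicate 1 held the highest value in both groups, as it did for the LDL receptor gene ldlrb, with 70.9, 3.03 and 7.17 TPM in refed Pachón livers, against 41.7, 3.45 and 1.6 TPM in refed surface livers (0.75 ± 1.06, limma adjusted p = 0.678). Neither ldlra (0.82 ± 0.84) nor hmgcrb (0.20 ± 0.25) was called (limma adjusted p = 0.557 and 0.626).

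Amino acid breakdown had the most called members of the 30 pathway lists, which differ in size. Of 94 listed genes 87 were tested, and 27 (31.0%) were higher, 3 (3.45%) lower and 57 not called, with a median of 0.69. Of all tested genes 10.7% were higher and 3.84% lower. The shares were 25% and 10% for the PPARG list and 30% and 0% for fatty acid synthesis. Among the tested breakdown genes 1 passed the filter through 1 group alone. In 13 other fits 21 to 36 were higher and 1 to 4 lower, the number lower being 1 without Pachon_refed replicate 1 or 2 or Surface_refed replicate 2. The tyrosine gene hpdb (ENSAMXG00000015502), a 4-hydroxyphenylpyruvate dioxygenase gene, had 821, 667 and 585 TPM in refed Pachón livers, against 1.35, 0.62 and 0.18 TPM in refed surface livers (8.70 ± 0.54, limma adjusted p = 1.45e-06). That was the largest positive change of any called gene, and surface livers were close to 0 in each library. Proline dehydrogenase gene prodha (ENSAMXG00000036729) had 168, 27.1 and 39 TPM in refed Pachón livers, against 1.04, 0.81 and 1.87 TPM in refed surface livers (4.71 ± 0.59, limma adjusted p = 0.000352). Pachon_refed replicate 1 was the highest, but the other 2 Pachón libraries were also far above the surface libraries.

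Among the higher members were genes of methionine, cysteine and glycine breakdown. mat1a (ENSAMXG00000038208), which makes S-adenosylmethionine, had 1460.4, 1024 and 979.5 TPM in refed Pachón livers, against 334, 244 and 289.5 TPM in refed surface livers (1.98 ± 0.25, limma adjusted p = 0.000359). In this paragraph and the next, the genes described other than mat1a, ivd and asl were chosen after their values were seen. Cystathionine beta-synthase gene cbsb (ENSAMXG00000018461) had 118, 112 and 116 TPM in refed Pachón livers, against 2.94, 15.3 and 16.8 TPM in refed surface livers (3.48 ± 0.58, limma adjusted p = 0.00229). The cystathionine gamma-lyase gene cthl (ENSAMXG00000039643) had 787, 602 and 609 TPM in refed Pachón livers, against 115, 213 and 137 TPM in refed surface livers (2.13 ± 0.36, limma adjusted p = 0.0025). All Pachón libraries were above all surface libraries for each of these 3 genes. In the linked glycine pathway, gldc (ENSAMXG00000014431) of the glycine cleavage system had 135, 107 and 117 TPM in refed Pachón livers, against 16.7, 9.41 and 24.2 TPM in refed surface livers (2.85 ± 0.53, limma adjusted p = 0.00457). The sarcosine dehydrogenase gene sardh (ENSAMXG00000006616) had 94.2, 127 and 102 TPM in refed Pachón livers, against 40.2, 39.3 and 14.6 TPM in refed surface livers (1.87 ± 0.33, limma adjusted p = 0.00334). shmt2, which interconverts serine and glycine in mitochondria, was higher by 1.52 ± 0.26 (limma adjusted p = 0.00271).

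Other higher members act on branched-chain amino acids, and single ones on lysine, histidine and in the urea cycle. These pathways were not compared as lists of their own, and 57 of the 87 tested breakdown genes were not called. The branched-chain ketoacid dehydrogenase gene bckdhb (ENSAMXG00000016827) had 246, 240.2 and 243 TPM in refed Pachón livers, against 60.5, 46.9 and 49 TPM in refed surface livers (2.21 ± 0.36, limma adjusted p = 0.00179). Its 3 Pachón values lay within a few TPM of each other. dbt (ENSAMXG00000017968), another part of that complex, had 13.4, 9.95 and 8.26 TPM in refed Pachón livers, against 3.57, 4.09 and 4.18 TPM in refed surface livers (1.20 ± 0.20, limma adjusted p = 0.0023). Leucine gene ivd (ENSAMXG00000030360) had 50, 32.4 and 35 TPM in refed Pachón livers, against 15.4, 13.3 and 11.6 TPM in refed surface livers (1.46 ± 0.23, limma adjusted p = 0.00167), and the methylmalonyl-CoA mutase gene mut was higher by 1.39 ± 0.24 (limma adjusted p = 0.0025). The lysine gene aass was higher by 1.55 ± 0.31 (limma adjusted p = 0.00688), and the histidine ammonia-lyase gene hal (ENSAMXG00000017914) had 1231, 1435 and 1497 TPM in refed Pachón livers, against 547, 719.9 and 595 TPM in refed surface livers (1.16 ± 0.22, limma adjusted p = 0.00494). Argininosuccinate lyase gene asl (ENSAMXG00000006009), of the urea cycle, had 6.8, 7.28 and 5.45 TPM in refed Pachón livers, against 1.45, 1.67 and 1.64 TPM in refed surface livers (1.53 ± 0.17, limma adjusted p = 0.000128). All these calls stood under all 18 alternatives. Several called genes of amino acid breakdown that are not described here lost their call without Pachon_refed replicate 1 (limma adjusted p from 0.0628 to 0.102). The genes described were thus among the more stable. The 3 lower members were hibadha, sdsl and a row of asns marked as one of many, of which asns makes asparagine and does not break it down. sdsl, a serine dehydratase family gene, had 6.83, 7.29 and 7.33 TPM in refed Pachón livers, against 20.3, 21.9 and 13.1 TPM in refed surface livers (-1.22 ± 0.24, limma adjusted p = 0.00574), a call that ended with both refed libraries numbered 1 left out (adjusted p = 0.0525).

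**Figure D2:**
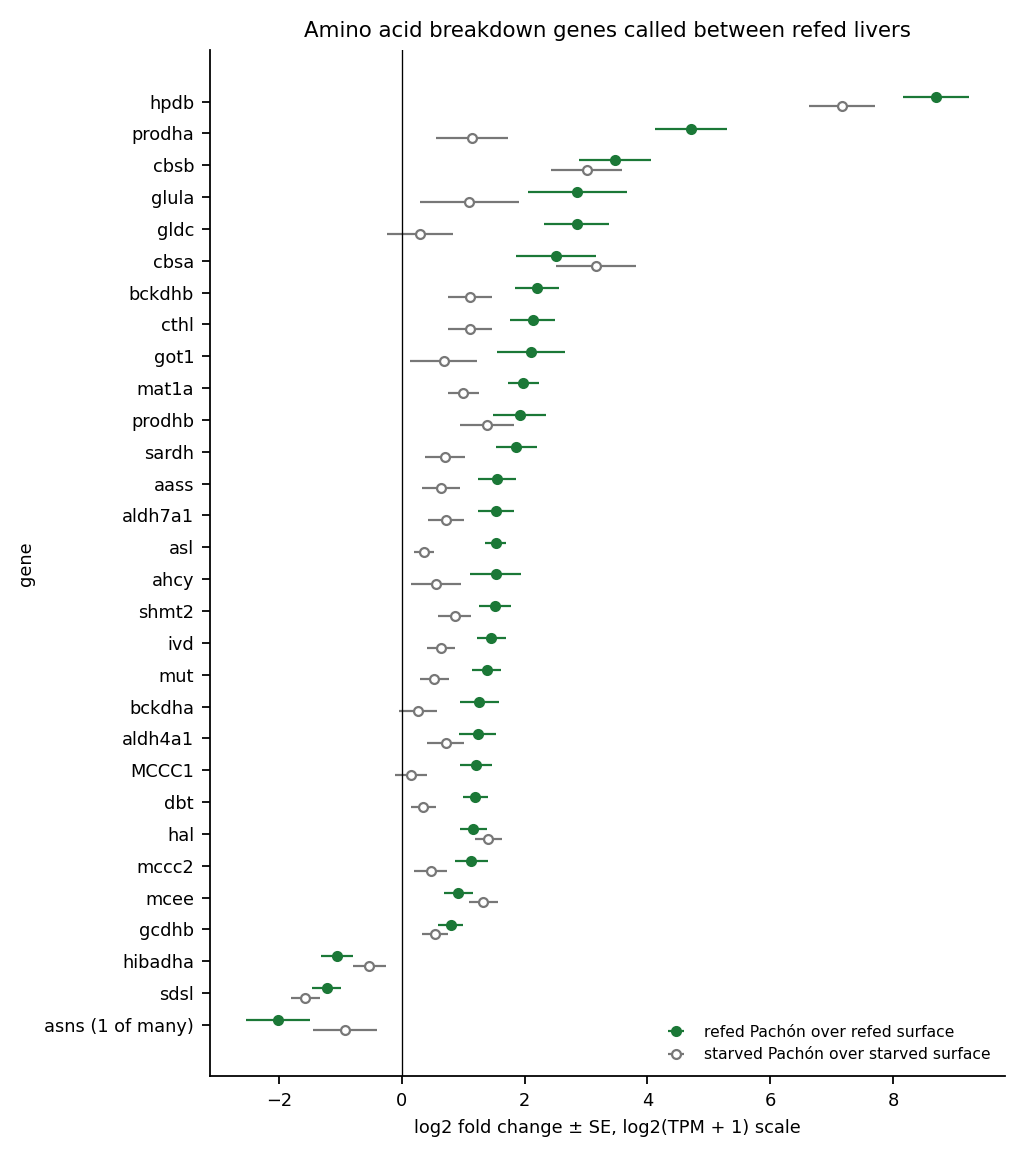
Log2 fold change ± SE of the 30 amino acid breakdown genes called between refed livers, in refed Pachón over refed surface livers (filled) and in starved Pachón over starved surface livers (open). For 27 genes the refed value is above 0, and hpdb has the largest in both states.

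Carbohydrate genes were called higher at shares a little above the background. For glycolysis and glucose uptake 5 of 28 tested genes (17.9%) were higher and 0 lower (median 0.53). For gluconeogenesis and glycogen 6 of 39 (15.4%) were higher and 1 (2.56%) lower (median 0.33). The shares of all tested genes were 10.7% and 3.84%. The glycolysis count was 2 without Pachon_refed replicate 2 or 3 and 3 without Surface_refed replicate 1 or 3, and the glycogen count was 10 with library weights. The number of all tested genes called higher moved as well, from 1269 to 764 and 916 without Pachon_refed replicates 2 and 3. It was 1183 and 1130 without Surface_refed replicates 1 and 3, and 1605 with library weights. The counts for glycogen and glucose synthesis were 4 higher and 2 lower under median-of-ratios scaling and 6 higher and 2 lower under quantile normalization. Enolase gene eno3 (ENSAMXG00000043495) had 384, 312 and 349 TPM in refed Pachón livers, against 169, 118 and 135 TPM in refed surface livers (1.31 ± 0.24, limma adjusted p = 0.00383). The phosphofructokinase gene pfkpa was higher by 1.55 ± 0.33 (limma adjusted p = 0.00969). Glucose transporter gene slc2a2 (ENSAMXG00000006312) was abundant, with 555, 1148 and 1192 TPM in refed Pachón livers, against 158, 405 and 446 TPM in refed surface livers (1.58 ± 0.41, limma adjusted p = 0.0234). Replicate 1 was its lowest library in both groups, and the call ended without Pachon_refed replicate 2, Pachon_refed replicate 3 or Surface_refed replicate 1 (adjusted p from 0.0578 to 0.0917) and with only the 6 refed libraries fitted (adjusted p = 0.0735). The glucokinase gene gck, by contrast, had overlapping groups and no call, with 26.9, 117 and 15.1 TPM in refed Pachón livers, against 125, 150.0 and 2.58 TPM in refed surface livers (-0.12 ± 1.19, limma adjusted p = 0.958).

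Among glycogen and glucose synthesis genes, mitochondrial phosphoenolpyruvate carboxykinase pck2 (ENSAMXG00000004486) had 692, 724 and 667 TPM in refed Pachón livers, against 296, 172 and 227 TPM in refed surface livers (1.61 ± 0.27, limma adjusted p = 0.00222). The cytosolic form pck1 spread widely, with 758, 76 and 329.8 TPM in refed Pachón livers, against 508, 4.14 and 32 TPM in refed surface livers. It was not called (2.60 ± 1.39, limma adjusted p = 0.235). phka1b (ENSAMXG00000005919), a subunit of the kinase that activates glycogen phosphorylase, had 81.1, 77.1 and 43.1 TPM in refed Pachón livers, against 9.38, 5.56 and 3.15 TPM in refed surface livers (3.32 ± 0.56, limma adjusted p = 0.00233). ppp1r3b (ENSAMXG00000025154), which brings a phosphatase to glycogen and favours its synthesis, had 109, 88.7 and 130.3 TPM in refed Pachón livers, against 48.3, 31.6 and 23.4 TPM in refed surface livers (1.68 ± 0.34, limma adjusted p = 0.00713). Both a gene of glycogen use and a gene of glycogen making were thus higher. fbp1a, of glucose synthesis, was higher by 1.39 ± 0.31 (limma adjusted p = 0.0115), a call that ended with both refed libraries numbered 1 left out (adjusted p = 0.0717).

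Insulin pathway genes gave 2 higher and 1 lower of 47 tested, a share below that of all genes, with a median of 0.08 that turned to -0.10 and -0.13 under median-of-ratios scaling and quantile normalization. The number higher was 0 without Surface_refed replicate 2 and 1 without Pachon_refed replicate 1 or 2, and the number lower was 3 without Surface_refed replicate 1. Among the tested members 2 passed the filter through 1 group alone. The receptor genes insra (0.32 ± 0.22, limma adjusted p = 0.379) and insrb (-0.17 ± 0.20, limma adjusted p = 0.604) were not called. The adaptor gene irs2a had 2.15, 14.9 and 5.72 TPM in refed Pachón livers, against 7.24, 0.26 and 0.58 TPM in refed surface livers (1.45 ± 0.69, limma adjusted p = 0.183), and irs2b had 0.61, 6.94 and 2.89 TPM in refed Pachón livers, against 0.67, 0.21 and 5.23 TPM in refed surface livers (0.66 ± 0.66, limma adjusted p = 0.545). For both the libraries of the groups overlapped. The transcription factor gene foxo1b was not called (0.04 ± 0.24, limma adjusted p = 0.933), foxo1a did not reach the filter, and igf1 was listed at 0 in all 6 libraries. Of the called genes, ddit4, an inhibitor of growth signalling through mTOR, had 20.8, 56.7 and 97 TPM in refed Pachón livers, against 4.15, 2.05 and 9.32 TPM in refed surface livers (3.19 ± 0.71, limma adjusted p = 0.0116). That call ended without Surface_refed replicate 2 (adjusted p = 0.051).

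Antioxidant and metal genes included called genes in both directions at high levels. Of 57 tested genes 10 (17.5%) were higher and 2 (3.51%) lower, against 10.7% and 3.84% of all tested genes (median 0.26). The number higher was 6 without Pachon_refed replicate 1 and also 6 with both refed libraries numbered 1 left out, and 5 were lower under quantile normalization. A metallothionein row, mt2 (1 of many) (ENSAMXG00000043108), which binds zinc and copper, had 3225, 2926 and 3382 TPM in refed Pachón livers, against 215, 376 and 243 TPM in refed surface livers (3.55 ± 0.28, limma adjusted p = 9.88e-06). A second row of the same symbol, ENSAMXG00000035436, had 107, 49.8 and 67.4 TPM in refed Pachón livers, against 0, 0.23 and 1.38 TPM in refed surface livers (5.66 ± 0.38, limma adjusted p = 2.59e-06). Reads of such copies may be split among rows, though both moved the same way. The lipid peroxide reductase gene gpx4a (ENSAMXG00000015995) had 1064, 1217 and 803 TPM in refed Pachón livers, against 185, 106 and 162 TPM in refed surface livers (2.78 ± 0.27, limma adjusted p = 5.45e-05). Other glutathione peroxidases were lower: gpx1a (ENSAMXG00000034328) had 83.6, 19.1 and 23.4 TPM in refed Pachón livers, against 380.2, 1112 and 1049 TPM in refed surface livers (-4.46 ± 0.60, limma adjusted p = 0.000598). The secreted form gpx3 (ENSAMXG00000032061) had 1361, 1247 and 1304 TPM in refed Pachón livers, against 2277, 2402 and 2653 TPM in refed surface livers (-0.90 ± 0.19, limma adjusted p = 0.00745). Glutaredoxin gene glrx (ENSAMXG00000031301), chosen after its values were seen, had 204, 297 and 275 TPM in refed Pachón livers, against 85.6, 21.5 and 37.3 TPM in refed surface livers (2.61 ± 0.56, limma adjusted p = 0.00946). All 6 calls stood under all 18 alternatives, and for all 6 no library of one group reached those of the other.

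Clock genes were called at more than the background share in the higher direction. Of 37 tested genes of 42 listed, 9 (24.3%) were higher and 1 (2.70%) lower, against 10.7% and 3.84% of all tested genes (median 0.30). The filter admitted 3 of the tested genes through 1 group alone. The number higher was 5 without Pachon_refed replicate 2 or Surface_refed replicate 2. There were 7 higher and 3 lower under median-of-ratios scaling and 6 higher and 4 lower under quantile normalization, with a median of 0.11 and 0.08. The output factor gene dbpb (ENSAMXG00000042954) had 11, 13.7 and 17.1 TPM in refed Pachón livers, against 2.48, 0.63 and 0.7 TPM in refed surface livers (2.79 ± 0.42, limma adjusted p = 0.00126). Cryptochrome repressor gene cry1ab (ENSAMXG00000020084) had 14.6, 32.6 and 27.6 TPM in refed Pachón livers, against 7.68, 7.41 and 7.63 TPM in refed surface livers (1.52 ± 0.31, limma adjusted p = 0.00732). Each Pachón library was above the surface libraries, which were nearly equal. bhlhe41, a repressor, was higher by 1.06 ± 0.21 (limma adjusted p = 0.00589), and cry-dash, a photolyase relative, by 1.03 ± 0.18 (limma adjusted p = 0.00341). The period gene per1a had 11.5, 11.4 and 14.3 TPM in refed Pachón livers, against 8.25, 4.03 and 1.77 TPM in refed surface livers (1.40 ± 0.37, limma adjusted p = 0.0262), and its call ended without Pachon_refed replicate 1, Pachon_refed replicate 2, Pachon_refed replicate 3, Surface_refed replicate 2 or Surface_refed replicate 3 (adjusted p from 0.0603 to 0.0834) and under median-of-ratios scaling, with only the 6 refed libraries fitted and under quantile normalization (adjusted p from 0.0714 to 0.0794). Of the other period and cryptochrome genes per1b (0.32 ± 0.26), per2 (0.30 ± 0.18), per3 (0.20 ± 0.28), cry1aa (0.58 ± 0.20), cry2 (0.45 ± 0.28) and cry4 (0.85 ± 0.60) were not called, with limma adjusted p of 0.0699 or more, and cry5 did not reach the filter. The labels give the time since the meal but no clock time of dissection, so the part of the hour in these values was not tested.

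Autophagy and lysosome genes were called in both directions. Of 79 tested genes 13 (16.5%) were higher and 4 (5.06%) lower, against 10.7% and 3.84% of all tested genes (median 0.28). The number higher was 5 without Pachon_refed replicate 2, 6 without Surface_refed replicate 2 and 8 without Pachon_refed replicate 3 or Surface_refed replicate 1, and it was 6 under quantile normalization, 7 under median-of-ratios scaling and 8 with both refed libraries numbered 1 left out. The number lower was 1 without Pachon_refed replicate 1 or 2 or Surface_refed replicate 3 and 2 without Pachon_refed replicate 3 or Surface_refed replicate 1 or 2, and it was 5 under each of these scalings. The kinase gene ulk2 (ENSAMXG00000009215), which starts autophagy, had 17, 26.9 and 57.2 TPM in refed Pachón livers, against 3.85, 5.51 and 3.12 TPM in refed surface livers (2.60 ± 0.42, limma adjusted p = 0.00176). becn1 (ENSAMXG00000015308), of the complex that forms the early membrane, had 4.71, 10.1 and 5.24 TPM in refed Pachón livers, against 1.35, 1.24 and 2.43 TPM in refed surface livers (1.49 ± 0.33, limma adjusted p = 0.0117) and was chosen after its values were seen. The protease gene atg4a was higher by 1.04 ± 0.21 (limma adjusted p = 0.007). In the lysosome, glucocerebrosidase gene gba (ENSAMXG00000040472) had 19.7, 13.9 and 16.6 TPM in refed Pachón livers, against 5.6, 4.24 and 4.09 TPM in refed surface livers (1.65 ± 0.23, limma adjusted p = 0.000776). The hexosaminidase gene hexa (ENSAMXG00000017869) was lower, with 0.33, 0.19 and 0.53 TPM in refed Pachón livers, against 2.55, 3.39 and 3.29 TPM in refed surface livers (-1.60 ± 0.18, limma adjusted p = 0.000163). It passed the filter through the surface libraries alone and so had to be lower. The calls of ulk2 and gba stood under all 18 alternatives, and those of becn1, atg4a and hexa under all 17 that were run for them. For hexa this adds no support, as the filter had fixed the direction.

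Lists of protein making and of mitochondria had medians from 0.12 to 0.56, beside 0.20 over all tested genes, and most of their members were not called. Ribosome biogenesis had a median of 0.56 over 96 tested genes with 5 higher and 0 lower, and the number higher was 0 without Pachon_refed replicate 1, 1 without Pachon_refed replicate 2 or Surface_refed replicate 2, 3 without Pachon_refed replicate 3 and 15 without Surface_refed replicate 1, 0 under median-of-ratios scaling and 1 under quantile normalization. Of 80 cytosolic ribosomal protein genes 2 were higher (1 without Pachon_refed replicate 2 or 3 or Surface_refed replicate 2 or 3), and the call that stood under all alternatives was that of rpl19 (ENSAMXG00000043666), with 64.7, 79.1 and 31.6 TPM in refed Pachón livers, against 8.41, 11.6 and 10.8 TPM in refed surface livers (2.32 ± 0.29, limma adjusted p = 0.000382). Reads of near-identical copies of ribosomal protein genes may be split among rows. Mitochondrial ribosomal proteins gave 11 (16.4%) higher and 1 (1.49%) lower of 67 (median 0.56), against 10.7% and 3.84% of all tested genes. But the number higher was 2 without Pachon_refed replicate 1 or Surface_refed replicate 2, 3 without Pachon_refed replicate 2 or Surface_refed replicate 3 and 4 without Pachon_refed replicate 3, and 2 under median-of-ratios scaling and quantile normalization. Of 84 respiratory chain genes 3 were higher (median 0.48), but 1 without Pachon_refed replicate 1 or 2 or Surface_refed replicate 2, 11 with only the 6 refed libraries fitted and 12 with library weights. ndufa4 (ENSAMXG00000012092), now known as a cytochrome c oxidase subunit, had 61.1, 24.1 and 32.5 TPM in refed Pachón livers, against 4.78, 0.15 and 1.07 TPM in refed surface livers (3.96 ± 0.65, limma adjusted p = 0.00191). Mitochondrial import and chaperone genes gave 4 higher of 50 (1 without Pachon_refed replicate 1 or Surface_refed replicate 2, 2 without Pachon_refed replicate 2 or 3 or Surface_refed replicate 3 and 7 without Surface_refed replicate 1). There were 1 higher and 1 lower under median-of-ratios scaling and 1 higher and 2 lower under quantile normalization. mtx3, of the outer membrane, was higher by 0.91 ± 0.16 (limma adjusted p = 0.0036). An unadjusted limma p under 0.05 was found for 32 of 96 ribosome biogenesis, 32 of 67 mitochondrial ribosomal protein and 31 of 84 respiratory chain genes. It was found for 11 of 50 import and chaperone genes and 5 of 80 cytosolic ribosomal protein genes. Of 53 proteasome genes none was called by limma, here or in 13 other fits, and 2 had an unadjusted p under 0.05 (median 0.36). Of 56 translation factor genes none was called by limma and 7 had an unadjusted p under 0.05. Their median of 0.12 turned to -0.09 and -0.06 under median-of-ratios scaling and quantile normalization, and 1 was higher without Pachon_refed replicate 2 or Surface_refed replicate 1.

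The unfolded protein response list had 2 higher and 2 lower of 64 tested genes, aminoacyl-tRNA synthetases 3 higher and 0 lower of 35, and cell cycle and DNA replication 3 and 0 of 29. Their shares of higher genes were at or below that of all genes. For the synthetases there were 1 higher and 0 lower under median-of-ratios scaling and 1 higher and 1 lower under quantile normalization, and for the cell cycle 1 higher and 1 lower under median-of-ratios scaling and 0 higher and 1 lower under quantile normalization. Without Pachon_refed replicate 1 or Surface_refed replicate 2 no synthetase gene was higher, and without Pachon_refed replicate 1 or 3 no gene of the unfolded protein response was lower. A single cell cycle gene was higher without Pachon_refed replicate 1 or 2 or Surface_refed replicate 2 or 3. Of 40 DNA repair genes 6 (15%) were higher and 0 lower, against 10.7% and 3.84% of all tested genes. The number higher was 2 without Pachon_refed replicate 2 or 3. That one-sided count depended on the scaling, with 4 higher and 2 lower under median-of-ratios scaling and 4 higher and 3 lower under quantile normalization and medians of 0.04 and -0.03, against 0.19 here. The calls of all tested genes shifted as well, from 1269 higher and 454 lower to 878 and 717 and to 816 and 818. One row of the alkylation repair gene alkbh3 (ENSAMXG00000037539) had 53.5, 21.8 and 15.1 TPM in refed Pachón livers, against 1.3, 2.86 and 1.63 TPM in refed surface livers (3.25 ± 0.52, limma adjusted p = 0.00183). It shares its symbol with a second called row, so reads may be split between them. Of 44 hepatocyte transcription factor genes 3 were higher and 0 lower. There were 3 higher and 2 lower under median-of-ratios scaling and 3 higher and 3 lower under quantile normalization, and 1 tested gene passed the filter through 1 group alone. The pioneer factor gene foxa2 (ENSAMXG00000039512) had 65.4, 74.1 and 69 TPM in refed Pachón livers, against 31.4, 27.1 and 32.4 TPM in refed surface livers (1.17 ± 0.23, limma adjusted p = 0.00545). creb3l3b (ENSAMXG00000040794), a relative of a membrane-bound factor of fasting and lipid metabolism in mammals, had 25, 9.29 and 14.1 TPM in refed Pachón livers, against 2.47, 4.85 and 2.05 TPM in refed surface livers (2.01 ± 0.32, limma adjusted p = 0.00176).

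Genes of secreted immune proteins gave few calls, with 0 higher and 1 lower of 53 complement, coagulation and acute phase genes (median -0.25) and 2 lower without Surface_refed replicate 1 or 2. In antigen presentation and interferon response 4 of 37 (10.8%, near the 10.7% of all tested genes) were higher and 0 lower (median 0.59). The number higher was 2 without Pachon_refed replicate 3 or Surface_refed replicate 2 and 7 without Surface_refed replicate 3. Among the higher genes was the class II activator gene ciita, higher by 1.00 ± 0.18 (limma adjusted p = 0.00397). It passed the filter through the Pachón libraries alone, as 1 of 2 tested members that passed through 1 group. Xenobiotic metabolism had 4 higher and 6 lower of 51, a share of lower genes above the background, and the number lower was 3 without Surface_refed replicate 2. The glutathione transferase gene gstr (ENSAMXG00000041157) had 4269.7, 2185 and 2694 TPM in refed Pachón livers, against 760.0, 630.2 and 321 TPM in refed surface livers (2.45 ± 0.37, limma adjusted p = 0.00122). Another transferase gene, gstt1a (ENSAMXG00000014946), was lower, with 358, 428 and 400.5 TPM in refed Pachón livers, against 664, 970.5 and 961 TPM in refed surface livers (-1.11 ± 0.24, limma adjusted p = 0.00898). The cytochrome gene cyp2n13 (ENSAMXG00000005285) was lower as well, with 54.4, 34.9 and 41 TPM in refed Pachón livers, against 129, 169 and 102 TPM in refed surface livers (-1.59 ± 0.31, limma adjusted p = 0.00533). Both transferases and the cytochrome were abundant, and the groups stood apart in each. A pair of cyp1a rows, marked as one of many, was called in opposite directions, of which ENSAMXG00000020784 had 13.2, 37.2 and 37.7 TPM in refed Pachón livers, against 2.18, 3.13 and 1.07 TPM in refed surface livers (3.20 ± 0.50, limma adjusted p = 0.00154). Whether reads were split between these copies was not tested.

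Steroid, thyroid and retinoid genes had 8 (15.1%) higher and 4 (7.55%) lower of 53 tested, against 10.7% and 3.84% of all tested genes. Among the tested members 3 passed the filter through 1 group alone. The number higher was 5 without Pachon_refed replicate 1, 2 or 3 or Surface_refed replicate 2, and 3 with both refed libraries numbered 1 left out. Under median-of-ratios scaling 6 were higher and 7 lower, and under quantile normalization 6 were higher and 6 lower. The calls of all tested genes shifted as well, from 1269 higher and 454 lower to 878 and 717 and to 816 and 818. A shift particular to this list was not tested. hsd17b3 (ENSAMXG00000037805), of androgen synthesis, had 3.06, 30 and 9.45 TPM in refed Pachón livers, against 0, 0.03 and 0 TPM in refed surface livers (3.44 ± 0.61, limma adjusted p = 0.00335). Its surface libraries were at or next to 0, and it passed the filter through the Pachón libraries alone. The retinol dehydrogenase family genes rdh12l and rdh14a were higher by 1.33 ± 0.23 and 0.90 ± 0.17 (limma adjusted p = 0.00275 and 0.00539), and a dhrs13b row, dhrs13b (1 of many) (ENSAMXG00000035666), was lower, with 0.31, 0.42 and 0.41 TPM in refed Pachón livers, against 7.69, 10.4 and 10.5 TPM in refed surface livers (-2.92 ± 0.18, limma adjusted p = 1.65e-06) and entry through the surface libraries alone.

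**Figure D3:**
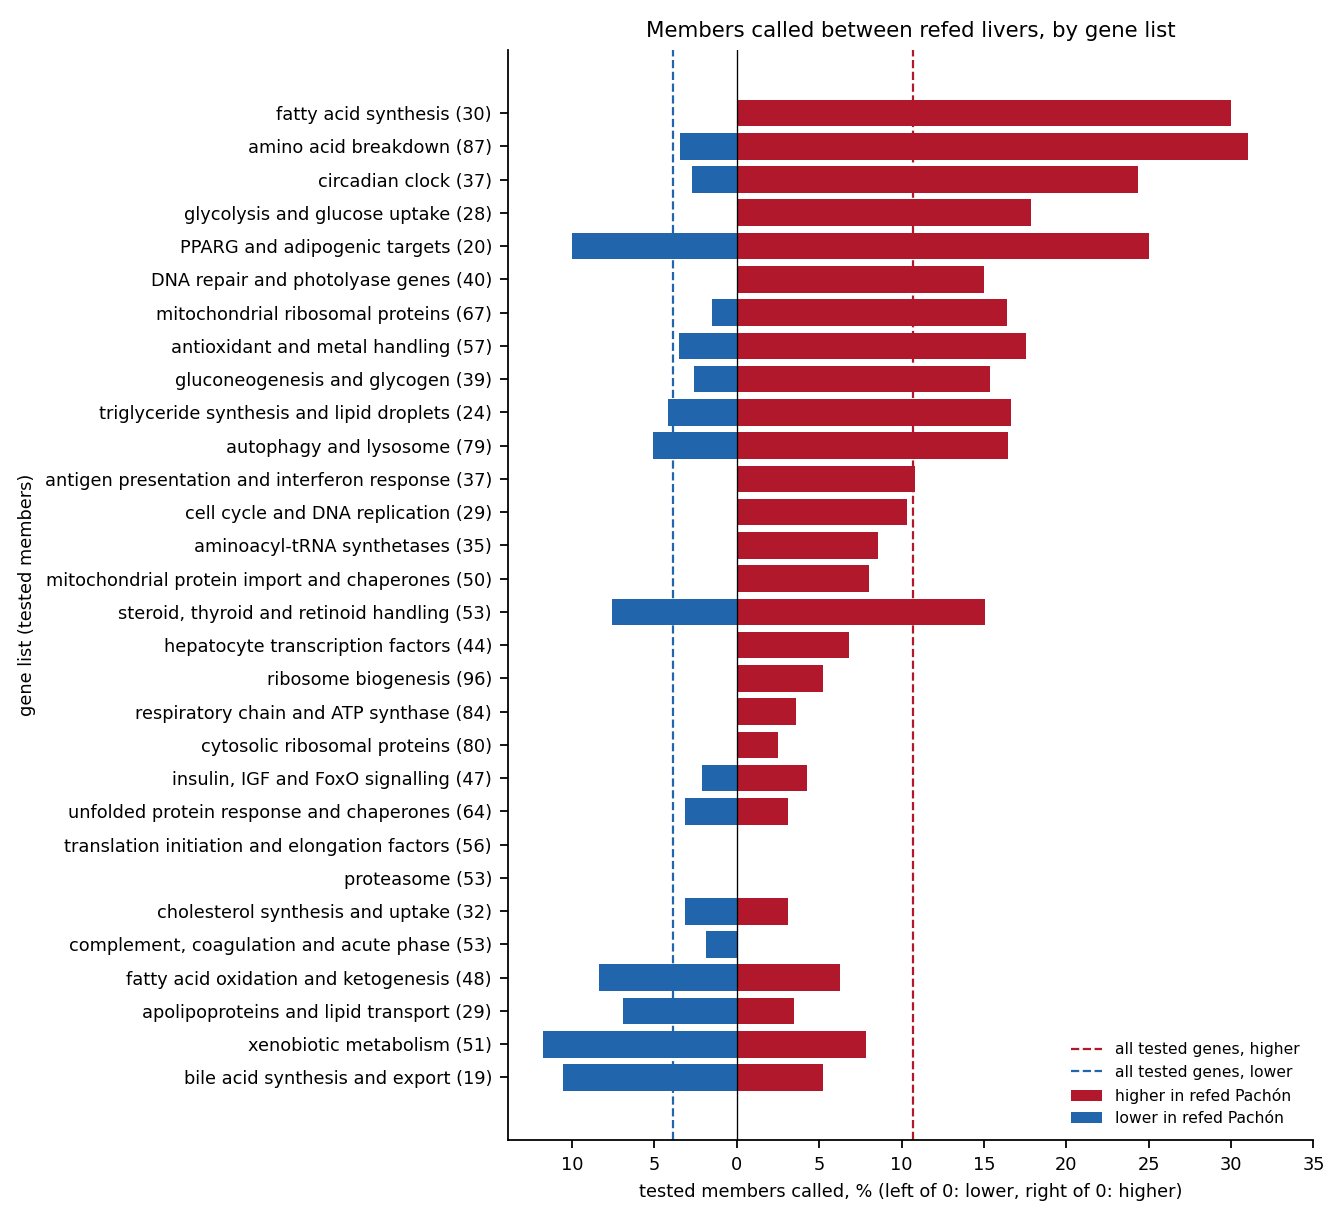
Percent of the tested members of each of 30 pathway lists called higher (right) or lower (left) in refed Pachón livers, with the share of all tested genes called in each direction as dashed lines (10.7% higher, 3.84% lower). Bars for fatty acid synthesis, amino acid breakdown and the circadian clock reach furthest beyond the dashed line for higher genes, together with PPARG targets, and the proteasome and translation factors have none.

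Most of the 15 highest and 15 lowest genes chosen by rule belong to none of these lists. cdcp1a (ENSAMXG00000030507), a transmembrane protein gene, had 19.3, 24.8 and 26.5 TPM in refed Pachón livers, against 0.1, 0.07 and 0.04 TPM in refed surface livers (4.51 ± 0.19, limma adjusted p = 1.14e-07). kif1ab (ENSAMXG00000005950), a kinesin motor gene, had 43.9, 30.2 and 31 TPM in refed Pachón livers, against 0.06, 0.21 and 0.37 TPM in refed surface livers (4.88 ± 0.35, limma adjusted p = 4.7e-06). The growth factor gene mdka (ENSAMXG00000037017), midkine, had 39.1, 121 and 139.9 TPM in refed Pachón livers, against 2.15, 3.73 and 1.34 TPM in refed surface livers (4.75 ± 0.50, limma adjusted p = 9.1e-05). nisch (ENSAMXG00000005024), which encodes an integrin-binding protein, had 36.7, 90.8 and 81.4 TPM in refed Pachón livers, against 0.84, 1.68 and 1.77 TPM in refed surface livers (4.78 ± 0.31, limma adjusted p = 2.18e-06). For each of these 4 the lowest Pachón library was many times above the highest surface library. However, cdcp1a, kif1ab and cngb3.2, given next, passed the filter through the Pachón libraries alone and so had to be higher. The serpin gene serpine3 (4.39 ± 0.32) and si:dkey-5g14.1 (4.79 ± 0.23) were likewise higher (limma adjusted p = 4.7e-06 and 2.57e-07). The cone channel gene cngb3.2 (ENSAMXG00000000107), whose relatives act in photoreceptors, had 29.8, 24 and 34 TPM in refed Pachón livers and was listed at 0 in all refed surface livers (limma adjusted p = 0.00128). The highest of the 15 after hpdb, afp4 of the antifreeze protein family, had 2433, 259.8 and 300.5 TPM in refed Pachón livers, against 239, 0.69 and 0.7 TPM in refed surface livers (6.03 ± 1.75, limma adjusted p = 0.0395). Surface_refed replicate 1 almost reached the Pachón libraries, and the call ended without Pachon_refed replicate 1, Pachon_refed replicate 2, Pachon_refed replicate 3, Surface_refed replicate 2 or Surface_refed replicate 3 (adjusted p from 0.0686 to 0.144) and under 4 other alternatives (adjusted p from 0.0531 to 0.0898). The call of si:ch73-335l21.4 (4.37 ± 1.06, limma adjusted p = 0.0175) ended without Pachon_refed replicate 1, Surface_refed replicate 2 or Surface_refed replicate 3 (adjusted p from 0.0613 to 0.0735), and that of si:ch1073-185p12.2 (3.98 ± 0.77, limma adjusted p = 0.00558) ended with both refed libraries numbered 1 left out (adjusted p = 0.0512).

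Of the 15 lowest genes, 2 neighbours in name, si:ch211-153b23.4 (ENSAMXG00000013879) and si:ch211-153b23.5 (ENSAMXG00000013875), were much lower. The first had 1.6, 1.73 and 1.08 TPM in refed Pachón livers, against 62.8, 168 and 211 TPM in refed surface livers (-5.75 ± 0.45, limma adjusted p = 7.99e-06), and the second had 12.8, 10.7 and 8.73 TPM in refed Pachón livers, against 198, 411 and 488 TPM in refed surface livers (-4.88 ± 0.39, limma adjusted p = 1.05e-05). In both, Surface_refed replicate 1 was the lowest surface library. rgs11 (ENSAMXG00000006320), a regulator of G protein signalling, had 0, 0 and 0.02 TPM in refed Pachón livers, against 52.4, 53.1 and 39 TPM in refed surface livers (-5.60 ± 0.84, limma adjusted p = 0.00116). The caspase gene CASP6 (ENSAMXG00000010263) had 1.19, 0 and 0.04 TPM in refed Pachón livers, against 10.9, 15.9 and 14.7 TPM in refed surface livers (-3.48 ± 0.65, limma adjusted p = 0.00427). The Pachón libraries of rgs11 were at or near 0, and Pachon_refed replicate 1 was the highest Pachón library of CASP6. An opsin family gene, rgrb (ENSAMXG00000004323), had 3.94, 7.8 and 5.88 TPM in refed Pachón livers, against 64.1, 139 and 47.6 TPM in refed surface livers (-3.51 ± 0.37, limma adjusted p = 0.000103). gch2 (ENSAMXG00000039949), a GTP cyclohydrolase gene of pteridine pigment synthesis in zebrafish, had 5.98, 6.39 and 7.12 TPM in refed Pachón livers, against 116, 66.4 and 44.4 TPM in refed surface livers (-3.25 ± 0.39, limma adjusted p = 0.000282). The Ras-association gene rassf1 (-3.42 ± 0.55), zgc:63972 (-3.52 ± 0.20), the kinesin gene KIF9 (-3.28 ± 0.47) and the kinase gene mknk1 (-2.89 ± 0.44) were lower too, with limma adjusted p of 0.00178 or less. Of these 10 genes rgs11, rassf1, zgc:63972, KIF9 and mknk1 passed the filter through the surface libraries alone and so had to be lower. The calls stood under all 18 alternatives, or for rassf1 and mknk1 under all 17 that were run. For the genes that had to be lower this adds no support, as the filter had fixed the direction. Of the remaining lowest genes named by the rule, gpx1a is given above with a call that stood, and the calls of the others were less stable. The cerebellin family gene cbln5 had 0.04, 0.04 and 112 TPM in refed Pachón livers, against 348, 271 and 451 TPM in refed surface livers (-6.14 ± 1.87, limma adjusted p = 0.0479), with Pachon_refed replicate 3 far above the other Pachón libraries. Its call ended without Pachon_refed replicate 1, Pachon_refed replicate 2, Surface_refed replicate 1, Surface_refed replicate 2 or Surface_refed replicate 3 (adjusted p from 0.0875 to 0.163) and under 9 other alternatives (adjusted p from 0.0509 to 0.219). hspb8, a small heat shock protein gene, differed by -3.90 ± 0.96 (limma adjusted p = 0.0187), a call that ended without Pachon_refed replicate 1 or Pachon_refed replicate 3 (adjusted p from 0.0704 to 0.072) and with both refed libraries numbered 1 left out (adjusted p = 0.131). The sialate esterase gene siae (-4.66 ± 1.09, limma adjusted p = 0.0146) lost its call with both refed libraries numbered 1 left out (adjusted p = 0.0881) and had entered through the surface libraries alone, and ppdpfa (-3.06 ± 0.79, limma adjusted p = 0.0234) lost it without Pachon_refed replicate 1, Pachon_refed replicate 2, Pachon_refed replicate 3, Surface_refed replicate 2 or Surface_refed replicate 3 (adjusted p from 0.0528 to 0.0794) and with both refed libraries numbered 1 left out and with a pseudocount of 5 (adjusted p from 0.076 to 0.0824).

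The rule took genes with a symbol of 1 row, and 597 called genes had none. Of these, 2 on each side are given here, chosen after their values were seen. The lowest was ENSAMXG00000037102, with 0.43, 0.37 and 0.2 TPM in refed Pachón livers, against 753, 1660.0 and 1564 TPM in refed surface livers (-9.88 ± 2.08, limma adjusted p = 0.00857), and ENSAMXG00000032562 had 1.21, 2.42 and 1.51 TPM in refed Pachón livers, against 882, 434 and 477 TPM in refed surface livers (-7.74 ± 0.40, limma adjusted p = 3.03e-07). On the other side were ENSAMXG00000043622, with 252, 141 and 111 TPM in refed Pachón livers, against 1.11, 0.14 and 0 TPM in refed surface livers (6.89 ± 0.36, limma adjusted p = 3.83e-07), and ENSAMXG00000035519, with 170.4, 268 and 253 TPM in refed Pachón livers, against 1.56, 1.12 and 2.24 TPM in refed surface livers (6.45 ± 0.28, limma adjusted p = 1.38e-07). In each, the libraries of one group lay many times below those of the other, and ENSAMXG00000037102 passed the filter through the surface libraries alone. The files give no name for them.

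**Figure D4:**
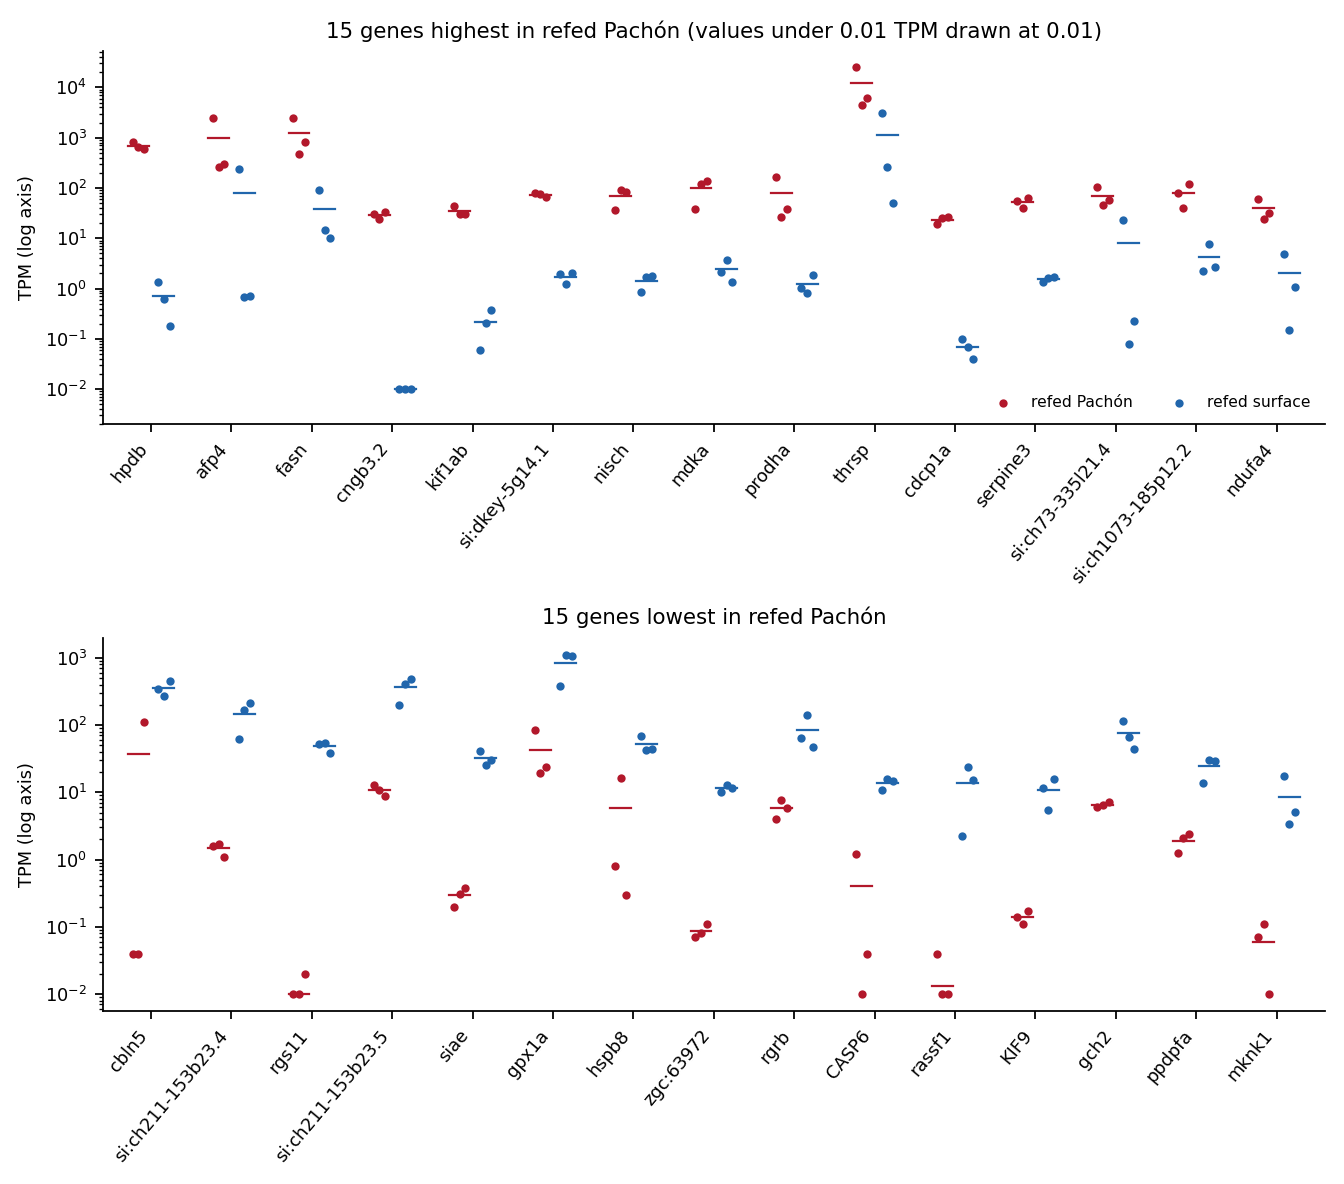
TPM on a log axis of the 15 genes highest (upper panel) and the 15 lowest (lower panel) in refed Pachón livers among those chosen by rule, with Pachón libraries left of surface libraries, lines at group means and values under 0.01 TPM drawn at 0.01. The wide spread of cbln5 in Pachón livers and of afp4 and thrsp in surface livers stands against the narrow groups of cdcp1a and zgc:63972.

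Most of these population differences had the same sign in starved fish. Pachón against surface livers after the fast gave 663 (5.61%) higher and 774 (6.55%) lower genes over the same 11819, with a median of -0.13. Of the genes higher in refed Pachón livers 451 were also higher in starved ones, which are 35.5% of the refed and 68.0% of the starved calls, and 243 were lower in both states, 53.5% and 31.4% of the lower calls. The starved difference was above 0 for 83.1% of genes higher in refed Pachón livers, against 39.5% of all tested genes, and below 0 for 93.4% of the lower ones, against 60.4%. Median-of-ratios scaling gave 882 higher and 662 lower starved genes. The starved count was 726 genes without Pachon_starved replicate 3 and 910 without Pachon_starved replicate 1, against 1437 with all libraries. Surface_starved replicate 2 stood apart. Its ovary and egg protein markers, mainly vtg3, summed to 4218 TPM, against 8.17 and 24.7 TPM in the other starved surface libraries. Without vtg3 these markers summed to 15.1 TPM in Surface_starved replicate 2, against 4.82 and 6.33 TPM. Its hepatocyte markers summed to 120200 TPM, against 239570 and 248470 TPM. Its most abundant gene had no symbol (61446 TPM), while fabp10a led all the remaining libraries. The source of its vtg3 transcripts was not tested. Without that library 1068 starved genes were called, with a median of -0.06. It also enters the pooled spread behind the refed calls. Among genes called in both states by the naming rule, hpdb had 92.5, 217 and 455 TPM in starved Pachón livers, against 0, 0.12 and 1.74 TPM in starved surface livers (7.18 ± 0.54, limma adjusted p = 5.5e-06). For cdcp1a the starved levels were 35.3, 24.3 and 33.7 TPM in Pachón livers, against 0.2, 0.08 and 0.05 TPM in surface livers (4.84 ± 0.19, limma adjusted p = 1.03e-07). The kinesin gene kif1ab (4.29 ± 0.35), nisch (4.44 ± 0.31), mdka (4.00 ± 0.50) and serpine3 (3.61 ± 0.32) were also higher in starved Pachón livers, with limma adjusted p of 0.00036 or less. accs (ENSAMXG00000017574) was higher by 3.59 ± 0.26 in refed and 3.99 ± 0.26 in starved Pachón livers (limma adjusted p = 4.7e-06 and 2.29e-06). It passed the filter through the refed Pachón libraries alone. PPARG was higher to a like degree when starved (1.74 ± 0.35, limma adjusted p = 0.00799), and the difference between the states was 0.09 ± 0.49 (limma adjusted p = 0.945).

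Among lipogenic genes the refed minus starved population difference ranged from values near 0 to several log2 units, and none was called. It was above 0 for 28 of 30 tested fatty acid synthesis genes (93.3%, median 1.37), against 72.3% of all tested genes (median 0.31). For triglyceride synthesis and lipid droplets it was above 0 for 19 of 24 (median 0.54). No member of these lists was called for it by limma, while 12 and 5 had an unadjusted p under 0.05. Such a shift was not particular to lipid genes. The difference was above 0 for 95 of 96 ribosome biogenesis, 65 of 67 mitochondrial ribosomal protein and 47 of 50 mitochondrial import genes. It was above 0 for 34 of 80 cytosolic ribosomal protein and 14 of 53 complement, coagulation and acute phase genes. The median over all tested genes was 0.036 under median-of-ratios scaling and 0.016 under quantile normalization. fasn had 1.41, 8.33 and 4.15 TPM in starved Pachón livers, against 0.88, 0.79 and 0.95 TPM in starved surface livers, a difference of 1.38 ± 0.79 on the log2 scale (limma adjusted p = 0.281). The refed minus starved population difference of fasn was 3.92 ± 1.12 (limma adjusted p = 0.165). aclya had 7.45, 6.63 and 4.12 TPM in starved Pachón livers, against 2.75, 13.2 and 13 TPM in starved surface livers (-0.39 ± 0.53, limma adjusted p = 0.666), and its difference between states was 4.13 ± 0.75 (limma adjusted p = 0.0825). For dgat1b that difference was 1.44 ± 0.27 (limma adjusted p = 0.0841). It was near 0 for acss2, with 0.04 ± 0.30 (limma adjusted p = 0.965), and for gpam, with -0.12 ± 0.37 (limma adjusted p = 0.892). In other pathways it was 3.56 ± 0.83 for prodha (limma adjusted p = 0.124) and 1.34 ± 0.26 for cry-dash (limma adjusted p = 0.0841). Of all 11819 genes, 4 (0.0338%) were called for this difference, all higher, and 2032 had an unadjusted p under 0.05. All 4 passed the filter, which reads the refed libraries alone, through the Pachón group alone, a choice that favours a positive refed minus starved difference. With the filter over 12 libraries 9 genes were called, these 4 among them. The count ran from 0 to 100 over the alternatives. It was 0 without Surface_refed replicate 2 or Pachon_starved replicate 1, 1 without Pachon_refed replicate 2, Pachon_starved replicate 3 or Surface_starved replicate 3, 2 without Pachon_refed replicate 1, 15 without Surface_refed replicate 1 and 46 without Surface_starved replicate 1. Of the called genes with a symbol, NEK3 (ENSAMXG00000009911), a kinase gene, had 4.72, 7.18 and 4.56 TPM in refed Pachón livers, against 0.34, 0.37 and 0.23 TPM in refed surface livers. In starved fish the levels were 1.77, 2.14 and 2.74 TPM in Pachón livers, against 2.25, 2.06 and 2.08 TPM in surface livers, and the difference of differences was 2.25 ± 0.26 (limma adjusted p = 0.0273). The refed surface libraries of NEK3 were the lowest of the 4 groups.

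A few genes were called in opposite directions in the feeding states. They numbered 5 with a higher refed and lower starved Pachón level and 1 with the opposite, and were chosen after their values were seen. triap1 (ENSAMXG00000034513), an inhibitor of cell death, had 32.6, 21.7 and 24.1 TPM in refed Pachón livers, against 12.9, 9.24 and 10.7 TPM in refed surface livers, and 4.62, 6.12 and 4.34 TPM in starved Pachón livers, against 9.27, 12.4 and 15.1 TPM in starved surface livers. Its log2 fold changes were 1.18 ± 0.24 refed and -1.13 ± 0.24 starved, and the difference between them, 2.30 ± 0.34, missed the threshold (limma adjusted p = 0.0523). slc25a26 (ENSAMXG00000009195), the mitochondrial carrier of S-adenosylmethionine, had changes of 1.49 ± 0.29 and -1.03 ± 0.29 with a difference of 2.51 ± 0.42 (limma adjusted p = 0.0785). zfand4 had 0.73 ± 0.19 and -0.64 ± 0.19 with 1.38 ± 0.26 (limma adjusted p = 0.0841), and its refed call ended without Pachon_refed replicate 1, Pachon_refed replicate 2 or Surface_refed replicate 1 (adjusted p from 0.0701 to 0.0795) and under 4 other alternatives (adjusted p from 0.0588 to 0.166). The other 3 are unnamed, and the difference was called for 1 of them. The refed calls of the remaining unnamed genes, ENSAMXG00000015683 and ENSAMXG00000029166, ended under several alternatives (limma adjusted p up to 0.123 and 0.0996). Starved calls of slc25a26, zfand4 and ENSAMXG00000015683 lay near the threshold (limma adjusted p = 0.0437, 0.0456 and 0.0497). Single starved calls were not followed over the alternatives.

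**Figure D5:**
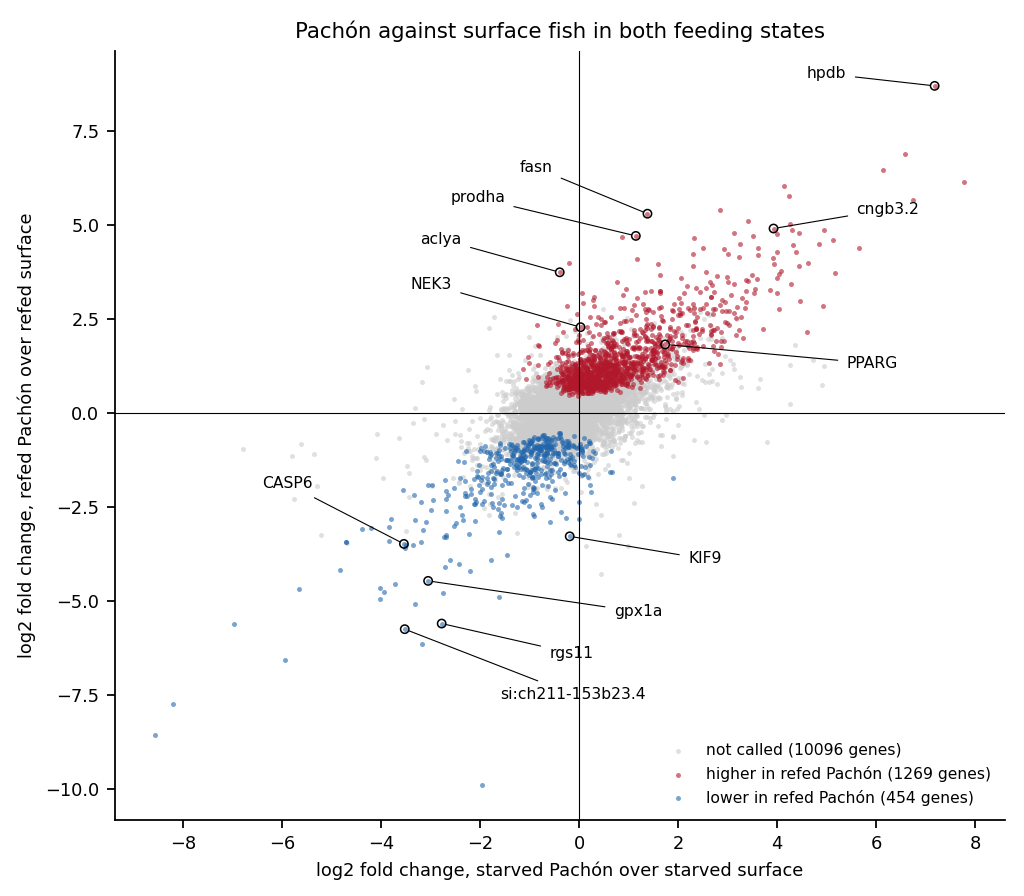
Log2 fold change of Pachón over surface livers for each of 11819 tested genes, refed on the vertical and starved on the horizontal axis, coloured by the refed call (1269 higher, 454 lower). Called genes lie mostly in the upper right and lower left, while aclya and NEK3 lie high with a starved value near 0, and fasn and prodha with one above 1.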

How the data were processed

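Liver RNA was measured in 12 polyA-selected, stranded libraries of single reads, per the labels' protocols. The authors deposited TPM values for 27420 genes, made with RSEM per the name of the table; bcl2fastq 2.18, STAR 2.6.1c and Bowtie2 are also named in the submitters' processing notes. The build, annotation and strand setting were not given in the sources used here. TPM values are not counts, so the depth is unknown and no counting interval is given. Values within 1 library compete, so a large change in abundant genes moves all others.

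Genes with at least 1 TPM in 3 or more of the 6 refed libraries were kept (11819), and log2(TPM + 1) was fitted with limma 3.58.1 in R 4.3.3 with a mean for each of 4 groups over 12 libraries (8 residual and 3.48 prior degrees of freedom, variance trend). P-values were adjusted by Benjamini-Hochberg over all 11819 genes, with a call at adjusted p under 0.05. Fold changes on this scale understate the change of low genes. SE is that of the fit. All p-values are two-sided and measure only the spread between these samples, which the labels do not tie outright to single fish. On simulated data for the refed comparison with 11819 genes, the calls found 0 of 67 changes of 1.5-fold, 14 of 67 changes of 2-fold and 48 of 66 changes of 4-fold. Only these genes were changed there, far fewer than the 1723 called in the real data. The Benjamini-Hochberg cutoff was thus stricter there, so these counts do not give the recovery in the real data. The smallest called change in the real data was 0.46 on the log2 scale.

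The genes compared, the 30 pathway lists and the 15 cell type lists were chosen with earlier results of these data known. A few wrong entries were removed from the lists after the files were read. Genes were named by a rule: the 15 highest and 15 lowest called genes with a symbol of 1 row, non-overlapping groups and 5 TPM or more as the mean of either refed group, up to 5 called members of smallest p per list, a fixed set of lipid, glucose, insulin and clock genes, the largest differences between feeding states, and the 10 largest shared by both states. Of 159 such genes 137 were called, of which 87 are given in the report. Of these 71 had a call that stood wherever it was tested (59 under all 18 alternatives, 12 under the 17 that a minimum of 5 TPM leaves). Of the 50 left out 3 stood. The genes given thus kept their calls more often than all 1723 called genes, of which 739 (42.9%) stood wherever they were tested. Other genes are said to be chosen after their values were seen. Of 72 genes so chosen 33 are given in the report. Alternatives changed the pseudocount, filter, scaling, library weights, samples fitted, replicate block and left-out library. Leaving out both refed libraries numbered 1 was added after seeing the data. ChIP-seq was not analysed here.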

Additional observations from a re-analysis of the deposited data

Results flagged for a closer look

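Of the 1723 genes called between refed populations, 4 also had a population difference that differed between the feeding states by the limma test of that difference, which flagged them. All 4 passed the filter on the refed libraries through the Pachón group alone, which favours a positive difference, so these values are a description. For NEK3 (ENSAMXG00000009911) the refed minus starved difference was 2.254 on the log2 scale (limma adjusted p = 0.0273). For znf326 (ENSAMXG00000037522) it was 2.314 (limma adjusted p = 0.0408), with 5.47, 3.29 and 4.04 TPM in refed Pachón livers, against 0.06, 0.03 and 0.21 TPM in refed surface livers, and 0.38, 0.18 and 0.12 TPM in starved Pachón livers, against 0.04, 0.82 and 0.12 TPM in starved surface livers. High values of znf326 were thus found in refed Pachón livers and in no other group. For ENSAMXG00000029657 the difference was 1.963 (limma adjusted p = 0.0366), and its levels were 1.36, 1.21 and 1.39 TPM in refed Pachón livers, against 0.59, 0.04 and 0.18 TPM in refed surface livers, and 0.03, 0.04 and 0.09 TPM in starved Pachón livers, against 0.91, 1.59 and 1.19 TPM in starved surface livers. That gene was called in opposite directions in the 2 states. For ENSAMXG00000043828 it was 1.55 (limma adjusted p = 0.0366), with 6.83, 9.06 and 8.45 TPM in refed Pachón livers and 1.9, 2.43 and 1.98 TPM in starved Pachón livers, while all surface livers of both states were listed at 0. A fold against a group listed at 0 depends on the pseudocount, and the value for this gene is no bound. How many genes this test calls depends strongly on the setting, as given below.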

How the results depend on the processing

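The depth is unknown, 3 libraries a group limit what can be called, and TPM fixes only shares of a library. Between refed populations 1723 genes were called, 866 with a minimum of 5 TPM and 1070 to 1651 without 1 library. Between starved populations 1437 were called, 735 with a minimum of 5 TPM, 2290 with library weights and 726 to 1349 without 1 library. For the difference between states 4 were called, but 1 with a pseudocount of 0.1 and 24 with 5, 18 with no filter, 0 with a minimum of 5 TPM, 9 with the filter over 12 libraries, 0 under median-of-ratios scaling, 13 under quantile normalization, 2 without the 20 most abundant genes, 100 with library weights, 0 with the replicate block and 0 to 46 without 1 library. The cause was not tested.

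Fold changes of uncalled genes turned sign. That of per3 was -0.0193 and that of hmgcrb -0.00995 under quantile normalization. For hmgcra it was -0.15 with a pseudocount of 5, -0.13 under median-of-ratios scaling, -0.23 under quantile normalization and -0.38 with library weights, and for foxo1b it was -0.10 under median-of-ratios scaling and -0.16 under quantile normalization. With both refed libraries numbered 1 left out, insrb had 0.0292, gck 0.91 and foxo1b -0.21. Without 1 library the ranges were -0.35 to 0.13 for cpt1aa, -1.30 to 1.89 for hmgcra, -0.46 to 1.97 for ldlrb, -0.0305 to 0.41 for hmgcrb, -1.88 to 0.82 for gck and -0.19 to 0.19 for foxo1b. No called gene named by the rule turned sign.

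Without their most abundant gene, log2 ratios of summed markers in refed Pachón over refed surface livers were 0.90 for neutrophils, 1.74 for adipocytes, -0.83 for exocrine pancreas, 1.42 for endocrine pancreas and 1.94 for skeletal muscle. The Pachón sum of skeletal muscle markers without mb came mostly from pvalb9, which had to be higher.

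Replicate numbers shared by the groups are no pairs by the labels. Deviations of same-numbered refed libraries correlated at 0.036 to 0.136 across genes, highest for the libraries numbered 1, and over all pairs of groups at -0.249 to 0.136. Refed libraries of different numbers correlated at -0.114 to 0.064 between the populations. A fit with the replicate block called 1370 refed and 1082 starved genes.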

Other observations

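Genes outside the comparisons above, chosen after their values were seen, are given as values. miox (ENSAMXG00000003957), which starts the breakdown of inositol, had 77.8, 37.7 and 60.6 TPM in refed Pachón livers, against 628, 406 and 253 TPM in refed surface livers (-2.81 ± 0.41, limma adjusted p = 0.00104). atic (ENSAMXG00000008743), of the last steps of purine synthesis, had 42.8, 33.2 and 50.1 TPM in refed Pachón livers, against 164, 193 and 308 TPM in refed surface livers (-2.34 ± 0.28, limma adjusted p = 0.000282). The lysosomal protease gene lgmn (ENSAMXG00000021444) had 13.1, 10.7 and 15.7 TPM in refed Pachón livers, against 112, 59.5 and 54.5 TPM in refed surface livers (-2.37 ± 0.36, limma adjusted p = 0.00138). All 3 were lower in each Pachón library than in any surface library.

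Of genes of amino acid use outside the comparisons above, 3 are given, all higher and chosen after their values were seen. The remaining such genes were not counted. gcat (ENSAMXG00000020893), of threonine and glycine breakdown, had 331, 311 and 297 TPM in refed Pachón livers, against 100.3, 107 and 125 TPM in refed surface livers (1.49 ± 0.23, limma adjusted p = 0.00128). The tryptophan gene ido1 (ENSAMXG00000039501) had 59.9, 70.4 and 57.4 TPM in refed Pachón livers, against 21.8, 13.5 and 6.92 TPM in refed surface livers (2.20 ± 0.38, limma adjusted p = 0.00265). kyat3 (ENSAMXG00000012538), also of tryptophan breakdown, had 89.6, 92.7 and 88.8 TPM in refed Pachón livers, against 15.3, 28.3 and 31.8 TPM in refed surface livers (1.87 ± 0.30, limma adjusted p = 0.00176). The Pachón libraries of these 3 genes lay close together and above all surface libraries. The thioredoxin-binding gene txnipa (ENSAMXG00000036748), known in mammals to respond to glucose, had 92, 186 and 172 TPM in refed Pachón livers, against 19.9, 10.5 and 62.1 TPM in refed surface livers (2.54 ± 0.51, limma adjusted p = 0.0064). Its surface libraries differed among themselves by a larger ratio than its Pachón libraries. All 7 calls of these paragraphs stood under all 18 alternatives.

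Both tested skeletal muscle markers passed the filter through the Pachón libraries alone and so had to be higher, and their values are a description. The myoglobin gene mb (ENSAMXG00000030396) had 9.95, 12.7 and 13.8 TPM in refed Pachón livers, against 0.37, 0.18 and 0.35 TPM in refed surface livers, and pvalb9 (ENSAMXG00000031306), a parvalbumin gene, had 4.12, 6.74 and 7.28 TPM in refed Pachón livers and was listed at 0 in all refed surface livers. Markers of muscle fibres such as acta1b and ckma did not reach the filter.

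In each population replicate 1 of the refed libraries held the highest value of fasn, aclya, thrsp, scd, PLIN2, hmgcra and ldlrb and the lowest value of slc2a2, cpt1ab and pparaa. Replicate numbers carry no shared label beyond the number.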
